A study of Mus musculus with 15 samples.

Results

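The ribosome biogenesis genes described here are a fixed list of 40 genes for the factors that transcribe ribosomal RNA and build it into ribosomal subunits in the nucleolus. Of these, 39 were measured, among 18194 genes in all. The gene that was left out, Mrto4, had no probe set named for it alone. Members were chosen by name from the array's annotation, and the probe set with the highest mean over the arrays stood for each gene. The rule names the genes and sets no threshold on their values, though the list was drawn up with earlier results of these data known.

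A ribosome begins with RNA polymerase I, which copies the ribosomal DNA into a long precursor. Small nucleolar ribonucleoproteins then modify the precursor, a large processome folds and cleaves the part for the small subunit, and a separate series of assembly factors matures the large subunit. Myc, a transcription factor that binds E-box sequences, is known as a common activator of these genes, and Myc itself is known as a target of Wnt signalling in intestinal cells. Apc keeps beta-catenin low by aiding its breakdown, and cells without Apc have active canonical Wnt signalling.

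The cells were LSK cells, a bone marrow fraction that holds blood stem and progenitor cells, from C57BL6 mice with 4 genotypes at Apc. The control was wt/wt. The mutant genotypes were 15lox/15lox, which carries the floxed allele on both chromosomes, and 15lox/1638N and 15lox/1572T, which pair the floxed allele with a hypomorphic allele, that is, an allele with reduced function. Cells of every genotype, wt/wt included, were infected outside the animal with an MSCV retrovirus that carries Cre and GFP, grown in Stemspan medium with mFlt3L, mTpo and mSCF, and sorted for GFP. Any recombination by this Cre would therefore take place in the infected cells, and no measure of it is used here. All arrays share the virus, the culture and the sort. RNA of the sorted cells was amplified with the Nugen Ovation V2 system and hybridised to 1 array per sample. There were 6 wt/wt arrays and 3 of each mutant genotype. The labels do not say whether replicates came from separate mice, so the p-values speak only to the spread among these arrays, which may be technical. In such bulk samples, fewer cells of a type and less RNA per cell cannot be told apart.

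The main comparisons used wt/wt arrays 4, 5 and 6 as the control. The mean of wt/wt arrays 1, 2 and 3 lay within 0.05 of the mean of arrays 4 to 6 on the log2 scale at 96.7% of the 45101 probe sets, and at 39 of 39 members. For other pairs of groups of 3 arrays that share was 20.2% to 26.1%. Arrays 1 to 3 therefore were not treated as independent samples, and the closing section gives the counts with all 6. Array medians lay between 6.65 and 6.84. The 7 measured markers of LSK cells (Kit, Flt3 and Cd34 among the 9 listed) had list means at most 0.07 below wt/wt in each mutant genotype, and 0 of 7 passed the test in any of them. In 15lox/1638N they ran from -0.60 (Flt3, adjusted p = 0.0509) to 0.24, with 2 lower and 1 higher at an unadjusted p under 0.05.

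Of 39 members, 34 had a promoter in the RefSeq table of mouse build GRCm38.p6, given there as 300 bases, 250 before and 50 after the annotated start. Fbl, Rrp12, Bop1, Rrs1 and Npm1 had none in the table. The E-box CACGTG, which reads the same on both strands and is the preferred site of Myc with its partner Max, was found in 6 of 34 members (17.6%), namely Utp20, Wdr43, Imp4, Tsr1, Pes1 and Nop2. It was in 10.2% of the promoters of 14453 genes on the array and in 19.8% of 101 other ribosome biogenesis genes. In Nop2 and Imp4 the E-box lay before the start. Both upstream stretches are shown because they are the members in which the E-box sequence stands in the 250 bases before the start. They are on the + strand, at chr6:125131633-125131882 for Nop2 and chr1:34439579-34439828 for Imp4, written 5′ to 3′ with the E-box in capitals.

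Nop2: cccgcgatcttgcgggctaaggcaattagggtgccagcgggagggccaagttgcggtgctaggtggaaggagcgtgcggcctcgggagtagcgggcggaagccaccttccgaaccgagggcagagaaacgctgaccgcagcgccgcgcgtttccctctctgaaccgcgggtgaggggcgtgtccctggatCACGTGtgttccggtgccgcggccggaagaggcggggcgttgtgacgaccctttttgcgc

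Imp4: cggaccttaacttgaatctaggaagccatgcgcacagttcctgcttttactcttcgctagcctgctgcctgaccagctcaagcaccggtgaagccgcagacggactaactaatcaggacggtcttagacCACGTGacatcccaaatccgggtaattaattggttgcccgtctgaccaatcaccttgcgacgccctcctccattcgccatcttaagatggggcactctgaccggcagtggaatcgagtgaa

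The E-box began 60 bases before the start in Nop2, which encodes an RNA methyltransferase of the large subunit, and 121 bases before it in Imp4, a component of the small subunit processome. The related sequence CACGCG, or CGCGTG on the other strand, was in 11 of 34 members (32.4%) and in 16.2% of the array's genes. The TCF and LEF motif ATCAAAG, or CTTTGAT on the other strand, was in 1 member, Noc4l (2.94%), and in 3.46% of the array's genes. These matches are letters in a window and say nothing of binding.

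No ribosome biogenesis gene passed the test in any mutant genotype. Against wt/wt, 0 of 39 members reached an adjusted p under 0.05 in 15lox/15lox, where 2.55% of all genes did, 0 of 39 in 15lox/1638N, where 3.47% of all genes did, and 0 of 39 in 15lox/1572T, where 0.110% did. At an unadjusted p under 0.05, the counts were 0 members in 15lox/15lox, against 12.1% of all genes, 14 members in 15lox/1638N (35.9%), against 19.8%, and 1 member in 15lox/1572T, against 7.91%. All 14 were higher in 15lox/1638N, where 6.19% of all genes were higher at that level. The lowest adjusted p of a member was 0.536 in 15lox/15lox, 0.110 in 15lox/1638N and 0.477 in 15lox/1572T. The median standard error of a member's log2 difference was 0.15.

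The measured differences leaned upward in 15lox/1638N. Of 39 members, 39 had a mean above wt/wt in that genotype, where 42.7% of all genes did. In 15lox/1572T 34 of 39 members did, against 42.8% of all genes, and in 15lox/15lox 28 of 39 did, against 37.3%. The median log2 difference over the members was 0.27 in 15lox/1638N, with members from 0.01 to 0.79, 0.13 in 15lox/1572T, from -0.07 to 0.28, and 0.04 in 15lox/15lox, from -0.09 to 0.34. The corresponding medians over all genes were -0.03, -0.03 and -0.05. All 39 members had a mean level above the median of all genes, so these shares and medians include many genes of lower level. The count in 15lox/15lox rested on single arrays, since 11 members lay above wt/wt without 15lox/15lox array 2 and 15 without wt/wt array 6. It was 22 of 39 when arrays were centred on their medians. In 15lox/1572T, 20 members lay above wt/wt without wt/wt array 6. In 15lox/1638N, at least 37 members lay above wt/wt under each alternative for which the count was made. The share of all genes above wt/wt was not computed for these alternatives, so their counts have no background beside them. The 3 comparisons share their wt/wt arrays, so a low or high wt/wt array moves all 3 together.

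**Figure D1:**
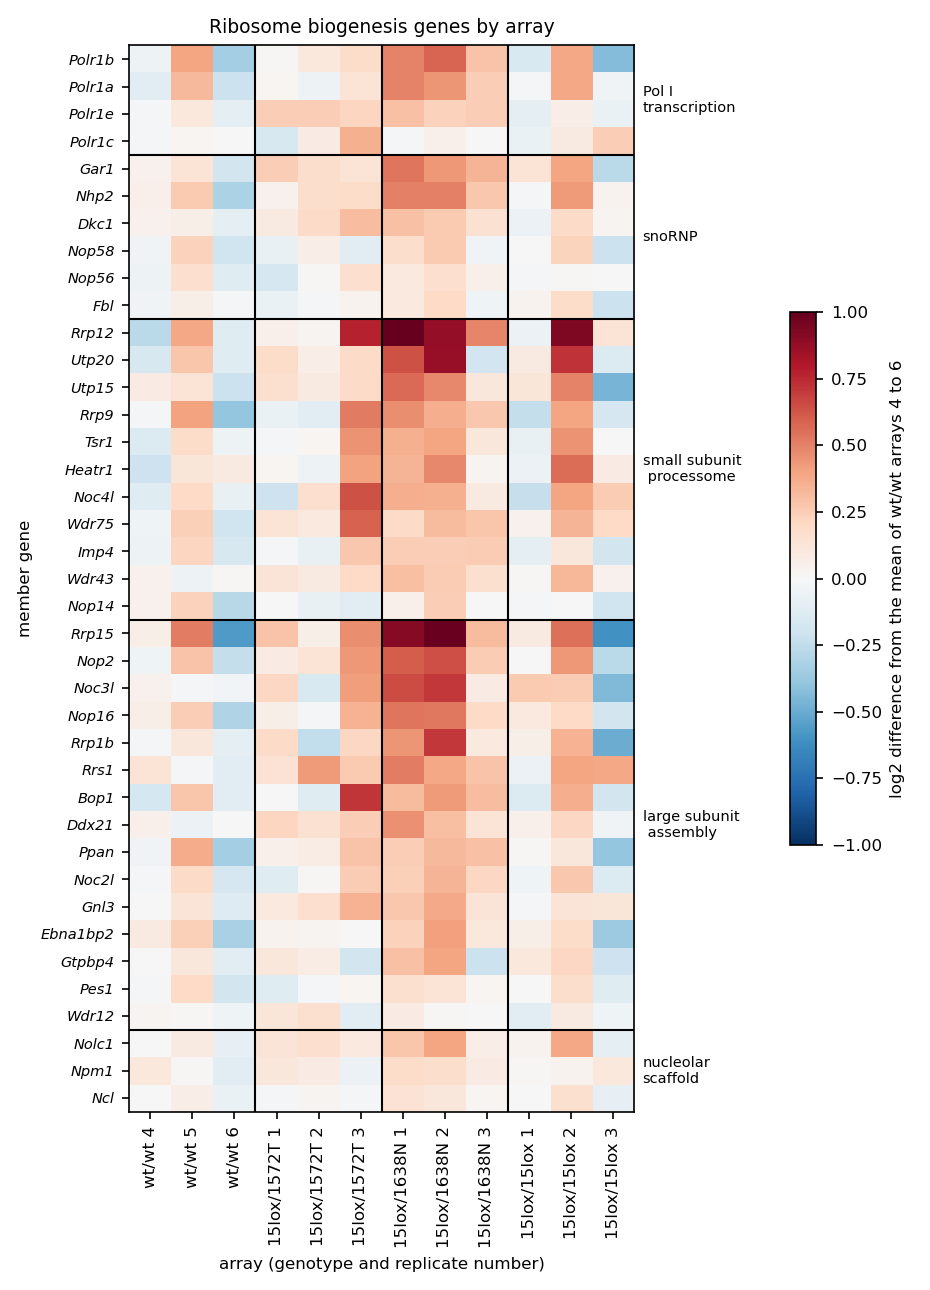
Log2 difference of each of the 39 members (rows, ordered by role) from the mean of wt/wt arrays 4 to 6, on each of 12 arrays (columns); red is higher and blue lower, and the colour scale ends at 1 and -1. Whole columns share a colour: 15lox/1638N arrays 1 and 2 and 15lox/15lox array 2 are red in nearly all rows, and wt/wt array 6 is blue in most.

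The mean log2 value of the 39 members was computed on each array. It was 11.77, 11.96 and 11.63 on wt/wt arrays 4, 5 and 6, with a mean of 11.79 ± 0.17 (SD, n = 3). In 15lox/1638N it was 12.15, 12.18 and 11.93, with a mean of 12.09 ± 0.14 (SD, n = 3). In 15lox/1572T it was 11.84, 11.85 and 12.03 (11.91 ± 0.11, SD, n = 3). In 15lox/15lox it was 11.78, 12.08 and 11.68 (11.85 ± 0.21, SD, n = 3). The differences from wt/wt were 0.30, 0.12 and 0.06. Arrays 1 and 2 of 15lox/1638N were above every wt/wt array, whereas array 3 lay below wt/wt array 5, so the genotypes overlapped. The 15lox/15lox arrays spanned a wider range than the wt/wt arrays and overlapped them. Without 1 array at a time, the difference was 0.22 to 0.39 in 15lox/1638N, 0.04 to 0.21 in 15lox/1572T and -0.06 to 0.15 in 15lox/15lox.

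**Figure D2:**
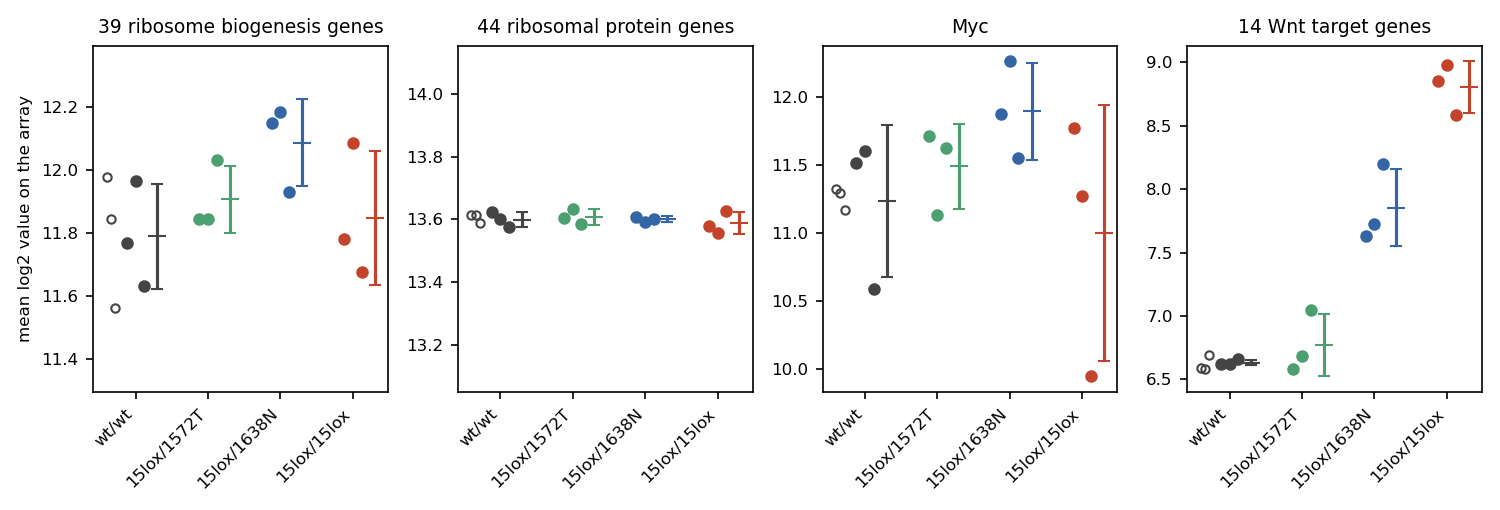
Mean log2 value per array of the 39 members, of 44 ribosomal protein genes, of Myc and of 14 Wnt target genes, by genotype; filled points are arrays in the fit, open points are wt/wt arrays 1 to 3, and the bars give mean and SD of 3 arrays. The first 2 panels and the others span different ranges: the members overlap between genotypes, ribosomal protein genes lie within 13.56 to 13.63 on the 12 arrays of the fit, and Wnt target genes separate 15lox/15lox and 15lox/1638N from wt/wt.

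The members varied together from array to array within a genotype. Array 5 was the highest of the 3 wt/wt arrays in 33 of 39 members (84.6%), compared with 34.8% of all genes, and array 6 the lowest in 29 (74.4%), compared with 35.9%. Array 2 of 15lox/15lox was the highest of its genotype in 36 members (92.3%, against 27.3% of all genes). Array 3 of 15lox/1638N was the lowest of its genotype in 34 members (87.2%, against 32.1%), and array 3 of 15lox/1572T the highest in 28 (71.8%, against 48.9%). Over the 12 arrays, the lowest value of a member fell on 15lox/15lox array 3 in 15 members and on wt/wt array 6 in 13, and the highest on 15lox/1638N array 2 in 14 and array 1 in 10. The median residual SD of a member within genotypes was 0.20, and that of all genes 0.16. Of 39 members, 11 had a difference between 15lox/1638N and wt/wt that exceeded the range of the wt/wt arrays, and 33.2% of all genes did so in size.

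The transcript Xist, made from the inactive X chromosome of female cells, also differed between arrays of a genotype. It was between 7.50 and 7.73 on wt/wt arrays 4 to 6, and 13.75 to 14.02 on 15lox/15lox arrays 2 and 3, 13.76 on 15lox/1638N array 3 and 13.80 on 15lox/1572T array 1. The remaining mutant arrays lay between 7.71 and 7.98. Of these 4 arrays with high Xist, 3 had the lowest member mean of their genotype (15lox/15lox array 3, 15lox/1638N array 3 and, by a small margin, 15lox/1572T array 1), and 15lox/15lox array 2 had the highest. With the Xist level as a covariate the difference of the member mean was 0.33 in 15lox/1638N, 0.15 in 15lox/1572T and 0.12 in 15lox/15lox, and 0 members were called. The part of Xist, or of sex, in the member values beyond this fit was not tested.

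Among the genes for RNA polymerase I, Polr1e had the lowest adjusted p of all members. It encodes a subunit of the enzyme that takes part in initiation. Its log2 values were 10.99, 11.11 and 10.92 in wt/wt, 11.30, 11.24 and 11.25 in 15lox/1638N, 11.25, 11.25 and 11.22 in 15lox/1572T, and 10.92, 11.07 and 10.94 in 15lox/15lox. All 6 arrays of the genotypes with a hypomorphic allele lay above all wt/wt and 15lox/15lox arrays. The difference from wt/wt was 0.26 ± 0.08 (SE, 1.19-fold, adjusted p = 0.110) in 15lox/1638N, 0.23 ± 0.08 (adjusted p = 0.477) in 15lox/1572T and -0.03 ± 0.08 (adjusted p = 0.947) in 15lox/15lox. The gene's other probe set gave 0.31 in 15lox/1638N and -0.03 in 15lox/15lox, but 0.08 in 15lox/1572T.

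Polr1a and Polr1b encode the large subunits that form the active site. Polr1b was 9.23, 9.67 and 8.94 in wt/wt, 9.77, 9.86 and 9.57 in 15lox/1638N, 9.29, 9.39 and 9.46 in 15lox/1572T, and 9.13, 9.67 and 8.85 in 15lox/15lox. Array 3 of 15lox/1638N was below wt/wt array 5, and the 15lox/15lox arrays repeated the wide wt/wt range. The difference from wt/wt in 15lox/1638N was 0.45 (95% interval -0.01 to 0.91) for Polr1b and 0.39 (0.06 to 0.73) for Polr1a, with adjusted p of 0.261 and 0.181. In 15lox/15lox it was -0.07 for Polr1b and 0.11 for Polr1a. Polr1c, a subunit that RNA polymerase I shares with RNA polymerase III, had the smallest difference of all members in 15lox/1638N, 0.01 (-0.26 to 0.28). The median difference of these 4 genes in 15lox/1638N was 0.33.

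The small nucleolar ribonucleoproteins fall into the box H/ACA class, which makes pseudouridine, and the box C/D class, which methylates ribose. Gar1, an H/ACA core protein, was 13.06, 13.15 and 12.83 in wt/wt, 13.55, 13.45 and 13.35 in 15lox/1638N, 13.26, 13.19 and 13.15 in 15lox/1572T, and 13.15, 13.41 and 12.74 in 15lox/15lox. All 15lox/1638N arrays were above all wt/wt arrays. The difference was 0.44 ± 0.15 (SE, 1.35-fold, adjusted p = 0.137). Nhp2, another H/ACA core protein, was 12.42, 12.63 and 12.05 in wt/wt and 12.87, 12.87 and 12.64 in 15lox/1638N, where the groups came within a narrow gap without overlap and the difference was 0.43 ± 0.16 (SE, adjusted p = 0.157). Dkc1, the pseudouridine synthase, differed by 0.23 (0.02 to 0.45) in 15lox/1638N and 0.20 (-0.02 to 0.41) in 15lox/1572T. For the C/D proteins Fbl, the methyltransferase, Nop56 and Nop58, the differences in 15lox/1638N were 0.08, 0.11 and 0.13, and every interval included 0. In 15lox/15lox each was 0.00 after rounding. The other probe sets of Fbl and Nop56 gave 0.21 each in 15lox/1638N. Whether H/ACA and C/D proteins differ was not tested.

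The small subunit processome and its late assembly factors had 11 members, all with a mean above wt/wt in 15lox/1638N and 8 of them in 15lox/15lox. Rrp12, which takes part in the maturation and export of pre-ribosomes, had the largest difference of all members in each mutant genotype. It was 8.29, 8.95 and 8.44 in wt/wt, 9.56, 9.44 and 9.05 in 15lox/1638N, 8.61, 8.59 and 9.33 in 15lox/1572T, and 8.50, 9.49 and 8.70 in 15lox/15lox. The 15lox/1638N arrays did not overlap wt/wt, though array 3 was above wt/wt array 5 by less than the spread of either group. In 15lox/15lox and 15lox/1572T a single array was high. The difference was 0.79 ± 0.28 (SE, 1.73-fold, adjusted p = 0.149) in 15lox/1638N, 0.34 ± 0.28 in 15lox/15lox (adjusted p = 0.728) and 0.28 ± 0.28 in 15lox/1572T (adjusted p = 0.880).

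Heatr1, Utp15, Wdr43 and Wdr75 belong to the part of the processome that also acts in transcription of the ribosomal DNA, and their differences in 15lox/1638N were 0.28, 0.39, 0.24 and 0.26. Wdr43 had the narrowest interval of these (0.02 to 0.45), and its 15lox/1638N arrays (13.25, 13.20 and 13.11) were above its wt/wt arrays (12.99, 12.90 and 12.96). Utp20, a scaffold of the processome, was scattered, with log2 values of 10.45, 10.89 and 10.49 in wt/wt, 11.25, 11.48 and 10.42 in 15lox/1638N, and 10.70, 11.33 and 10.47 in 15lox/15lox. Its difference in 15lox/1638N, 0.44 (-0.15 to 1.03), rested on arrays 1 and 2, since array 3 was the lowest of the 12. Imp4, whose upstream E-box is shown above, was 11.62, 11.89 and 11.51 in wt/wt, 11.92, 11.92 and 11.93 in 15lox/1638N, 11.66, 11.60 and 11.94 in 15lox/1572T and 11.58, 11.79 and 11.49 in 15lox/15lox. The 15lox/1638N arrays were nearly equal and just above wt/wt array 5, for a difference of 0.25 (-0.02 to 0.52, adjusted p = 0.299). The other probe sets of Imp4, at lower levels, went both ways in 15lox/1638N, with 0.285 and -0.207. Tsr1, a late assembly factor, differed by 0.29 (-0.08 to 0.66). Rrp9 of the processome's small nucleolar RNP and Noc4l differed by 0.36 and 0.27, and Nop14, the partner of Noc4l, by 0.10. In 15lox/15lox, Nop14 was at -0.07 (-0.35 to 0.20).

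**Figure D3:**
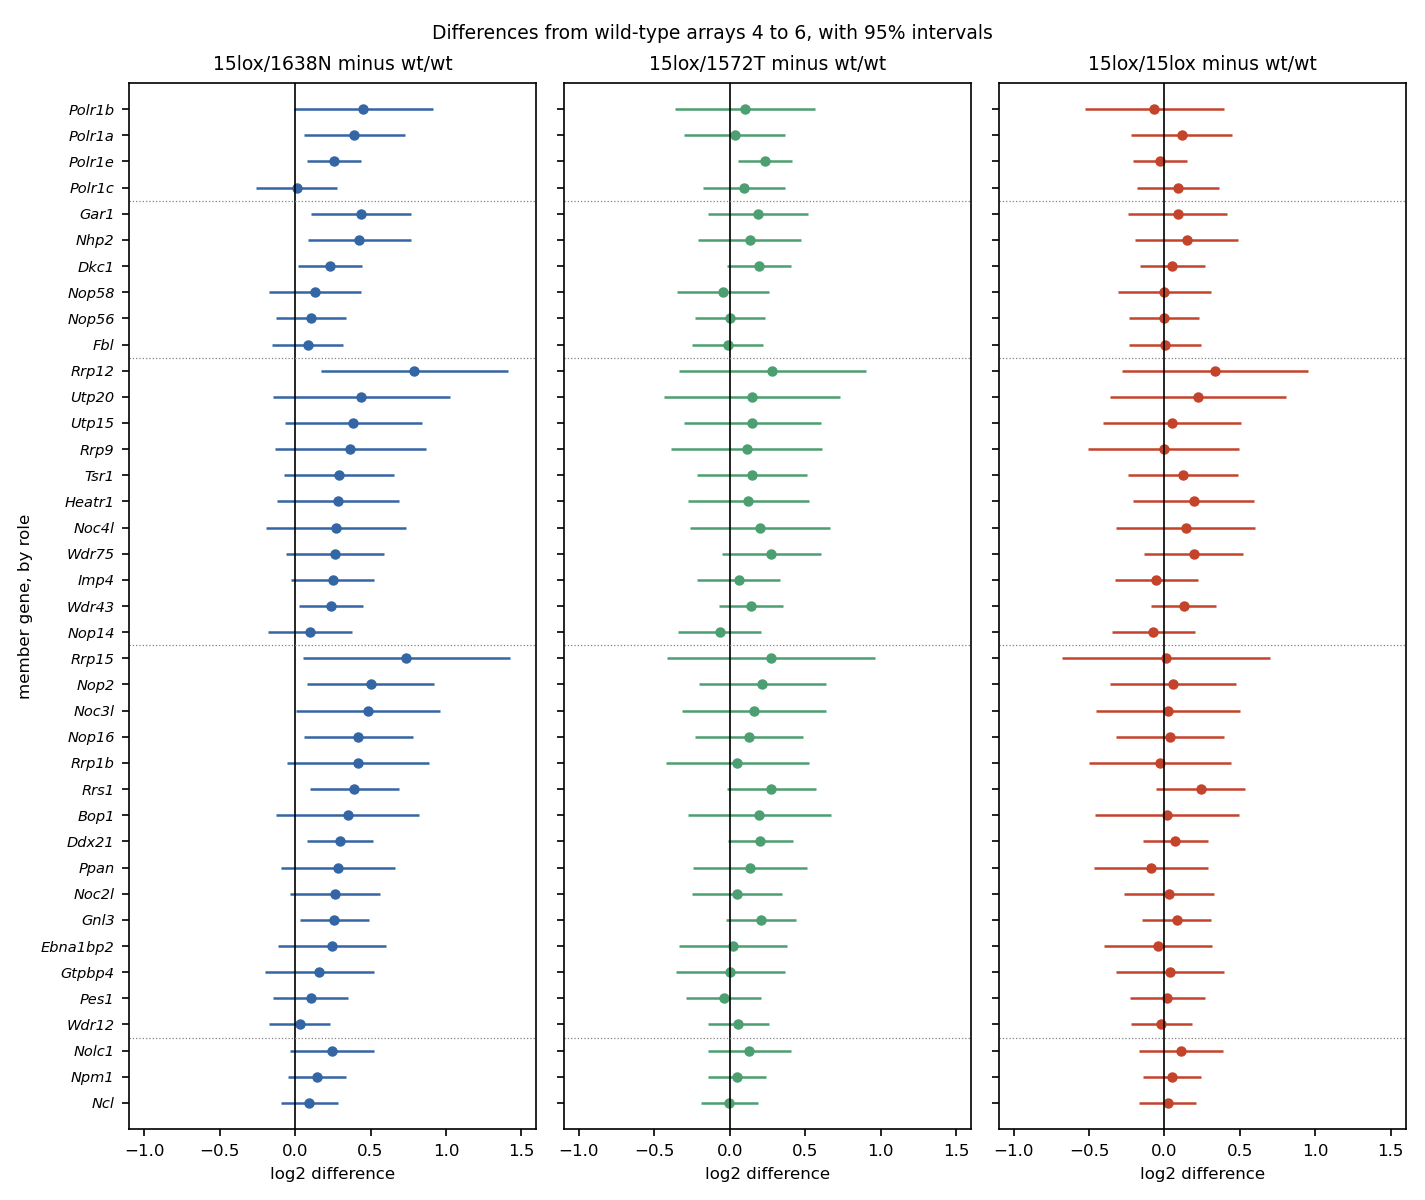
Log2 difference of each member from wt/wt arrays 4 to 6 (points) with its 95% interval (lines), in 15lox/1638N, 15lox/1572T and 15lox/15lox; dotted lines separate the roles in the order RNA polymerase I, small nucleolar RNP, small subunit, large subunit and nucleolar scaffold. The points lie to the right of 0 for 39 of 39 members in 15lox/1638N, around 0 in 15lox/15lox, and most intervals include 0.

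Large subunit assembly had 15 members, with a median difference of 0.30 in 15lox/1638N, 0.14 in 15lox/1572T and 0.02 in 15lox/15lox. Rrp15 was 10.35, 10.80 and 9.73 in wt/wt, 11.20, 11.28 and 10.61 in 15lox/1638N, 10.58, 10.35 and 10.76 in 15lox/1572T and 10.38, 10.84 and 9.68 in 15lox/15lox. The wt/wt and 15lox/15lox arrays spanned nearly the same wide range, and array 3 of 15lox/1638N lay inside it. The difference in 15lox/1638N was 0.74 ± 0.31 (SE, 1.67-fold, adjusted p = 0.219) and in 15lox/15lox 0.01 ± 0.31 (adjusted p = 0.996). Nop2 was 11.23, 11.56 and 11.04 in wt/wt, 11.88, 11.92 and 11.53 in 15lox/1638N, 11.36, 11.41 and 11.71 in 15lox/1572T and 11.28, 11.71 and 11.01 in 15lox/15lox. Arrays 1 and 2 of 15lox/1638N exceeded all wt/wt arrays and array 3 was just below wt/wt array 5. The difference was 0.50 ± 0.19 (SE, 1.41-fold, adjusted p = 0.175), and 0.06 ± 0.19 in 15lox/15lox (adjusted p = 0.958).

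Rrs1, which helps bring the small RNA of the large subunit into the particle, was 12.57, 12.42 and 12.32 in wt/wt, 12.95, 12.82 and 12.72 in 15lox/1638N, 12.58, 12.86 and 12.70 in 15lox/1572T and 12.38, 12.83 and 12.82 in 15lox/15lox. Both genotypes with a hypomorphic allele lay above wt/wt without overlap, and in 15lox/15lox 1 array lay inside the wt/wt range. In 15lox/1572T the gap was very narrow, with a lowest array at 12.58 and a highest wt/wt array at 12.57. The differences were 0.39 ± 0.13 (SE, adjusted p = 0.134), 0.28 ± 0.13 (adjusted p = 0.665) and 0.24 ± 0.13 (adjusted p = 0.536). Ddx21, an RNA helicase that links RNA polymerase I transcription to processing and is named here for its low p, was 13.21, 13.10 and 13.16 in wt/wt and 13.61, 13.46 and 13.29 in 15lox/1638N, with no overlap and a difference of 0.30 ± 0.10 (SE, adjusted p = 0.129). The subunits of the PeBoW complex, which matures the large subunit RNA, differed in 15lox/1638N by 0.10 (Pes1), 0.35 (Bop1) and 0.03 (Wdr12). The interval of Wdr12 was the narrowest of these, from -0.17 to 0.23. The other probe sets of Wdr12 gave 0.23 and 0.00 in 15lox/1638N, and -0.22 and -0.05 in 15lox/15lox. Gnl3, the stem cell protein nucleostemin, differed by 0.26 (0.03 to 0.49, adjusted p = 0.196) in 15lox/1638N, 0.21 in 15lox/1572T and 0.08 in 15lox/15lox. Ppan had the lowest difference of all members in 15lox/15lox, -0.09 (-0.46 to 0.29), and 0.29 in 15lox/1638N. The remaining large subunit factors, Ebna1bp2, Nop16, Gtpbp4, Noc2l, Noc3l and Rrp1b, lay between 0.16 and 0.48 in 15lox/1638N and between -0.04 and 0.04 in 15lox/15lox. Their other probe sets spread more widely in 15lox/15lox, from -0.12 (Rrp1b) to 0.41 (Gtpbp4).

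The 3 nucleolar scaffold proteins are abundant proteins that organise the nucleolus. Ncl, nucleolin, was 13.50, 13.57 and 13.44 in wt/wt, 13.65, 13.62 and 13.52 in 15lox/1638N, 13.48, 13.53 and 13.49 in 15lox/1572T and 13.50, 13.66 and 13.42 in 15lox/15lox. The genotypes overlapped, and the difference in 15lox/1638N was 0.09 (-0.10 to 0.28, adjusted p = 0.599). Npm1, nucleophosmin, differed by 0.15 (-0.04 to 0.34) there and by 0.05 in 15lox/15lox. Nolc1, a chaperone of small nucleolar RNPs, differed by 0.25 (-0.03 to 0.52) and 0.11. On the log2 scale, the mean difference in 15lox/1638N by role was 0.28 for RNA polymerase I, 0.24 for small nucleolar RNPs, 0.33 for the small subunit, 0.33 for the large subunit and 0.16 for the scaffold. In 15lox/15lox the same means were 0.03, 0.05, 0.11, 0.03 and 0.06. Differences between roles were not tested, and their order depended on the probe sets: with all probe sets of a gene averaged, the means in 15lox/1638N were 0.27, 0.26, 0.34, 0.38 and 0.32, which puts the scaffold above RNA polymerase I and small nucleolar RNPs. The other probe sets of Ncl gave 0.18 to 0.75, and those of Nolc1 0.54 and 0.76.

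Groups without overlap were counted as well. In 15lox/1638N, 12 members had all 3 arrays above all 3 wt/wt arrays, against 10.2% of all genes. The count was 6 in 15lox/1572T, against 4.02%, and 0 in 15lox/15lox, against 6.13%. All 3 counts use the same wt/wt arrays. Members with an E-box had a median difference of 0.27 in 15lox/1638N, and members with a promoter but no E-box also 0.27. In 15lox/15lox these medians were 0.09 for 6 members and 0.03 for 28.

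The mutant genotypes were also compared with each other, in the same fit of 12 arrays, so the wt/wt arrays entered the estimate of the spread but not the differences. Of 39 members, 0 were called between 15lox/15lox and 15lox/1638N, where 0.418% of all genes were, 0 between 15lox/15lox and 15lox/1572T (1.63% of all genes), and 0 between 15lox/1638N and 15lox/1572T (0.352%). Of 39 members, 1, Polr1c, had a higher mean in 15lox/15lox than in 15lox/1638N, and 48.2% of all genes did. The median difference was -0.22 and the lowest adjusted p was 0.269, for Polr1e (-0.29 ± 0.08, SE). At an unadjusted p under 0.05, 8 members were lower in 15lox/15lox (20.5%), and 3.77% of all genes were. That count was 1 to 22 without 1 array at a time (1 without 15lox/15lox array 3 or 15lox/1638N array 1 or 2, 2 without 15lox/15lox array 1, 4 without wt/wt array 4, 22 without 15lox/15lox array 2) and 1 with the Xist level as a covariate. The share of all genes at that level is not given for these fits. At an adjusted p under 0.05 the share of all genes moved as well, from 0.154% without 15lox/1638N array 1 to 0.929% without array 3. A fit of these 2 genotypes alone called 2 genes in all, in place of 76, and 0 members. In 5 members, Polr1e, Nop56, Nop14, Imp4 and Ppan, all 15lox/15lox arrays lay below all 15lox/1638N arrays, as they did for 7.67% of all genes. The member mean was lower in 15lox/15lox by 0.15 to 0.36 without 1 array at a time. Against 15lox/1572T, 1 member, Polr1e, was lower in 15lox/15lox at that level (3.92% of all genes), by a log2 difference of -0.26. The mean of 15lox/1638N was higher than that of 15lox/1572T in 36 members (47.5% of all genes), with a median difference of 0.16 and no overlap in 6 (6.96%). Polr1a was the 1 member higher there at an unadjusted p under 0.05 (3.74% of all genes), with 10.45, 10.40 and 10.20 in 15lox/1638N and 9.97, 9.90 and 10.09 in 15lox/1572T, and its adjusted p was 0.512. The intervals of these differences do not show that the genotypes are alike.

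Myc was measured beside these genes. Its log2 values were 11.51, 11.60 and 10.59 in wt/wt, 11.87, 12.26 and 11.55 in 15lox/1638N, 11.71, 11.13 and 11.62 in 15lox/1572T, and 11.77, 11.27 and 9.95 in 15lox/15lox. Array 6 of wt/wt and array 3 of 15lox/15lox were low, and the genotypes overlapped. Myc did not pass the test in any genotype: the difference was 0.66 (adjusted p = 0.412) in 15lox/1638N, 0.25 (adjusted p = 0.945) in 15lox/1572T and -0.24 (adjusted p = 0.900) in 15lox/15lox. The arrays with low Myc were also those with the lowest member means. Over the 12 arrays the member mean and Myc had a Pearson correlation of 0.71 and a Spearman correlation of 0.63. Without wt/wt array 6 and 15lox/15lox array 3 the Pearson correlation was 0.45, so it rested in part on those arrays, and for deviations from genotype means it was 0.61. These are descriptions over arrays that share processing and control samples.

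**Figure D4:**
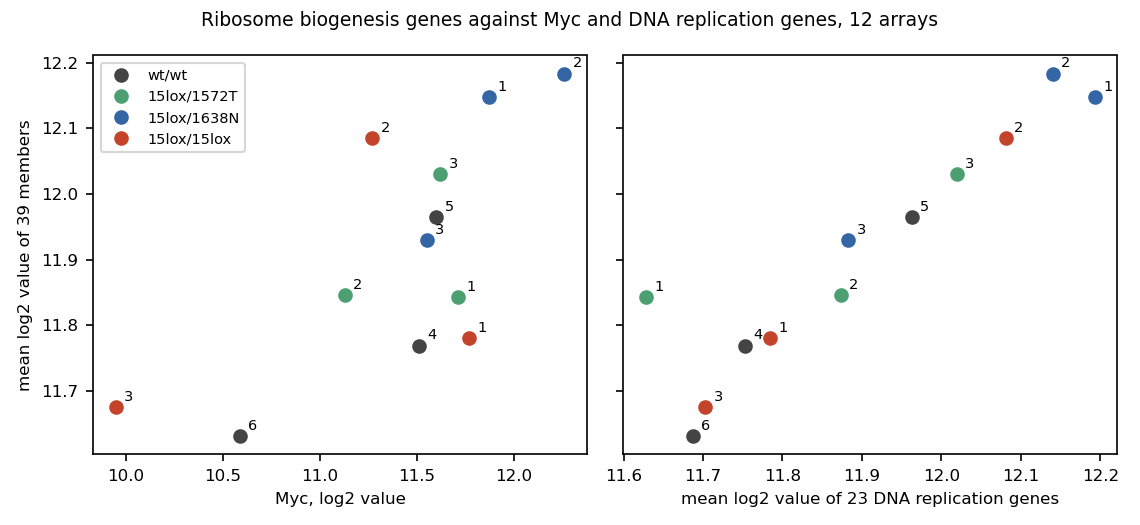
Mean log2 value of the 39 members on each of 12 arrays (y axis) against the log2 value of Myc (left) and against the mean log2 value of 23 DNA replication genes (right), with colour for genotype and the replicate number beside each point. The arrays lie closer to a line on the right than on the left, where 15lox/15lox array 3 and wt/wt array 6 stand apart at low Myc.

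Of 12 genes of the Myc network, 1 changed, in 15lox/1638N. Mxd4, a repressor that competes with Myc for Max, was 12.34, 12.55 and 12.68 in wt/wt, 11.35, 11.29 and 12.07 in 15lox/1638N, 12.18, 12.02 and 12.08 in 15lox/1572T and 12.15, 11.66 and 12.29 in 15lox/15lox. All mutant arrays were below all wt/wt arrays, with arrays 1 and 2 of 15lox/1638N the lowest. In 15lox/1638N it fell by 0.95 ± 0.21 (SE, adjusted p = 0.0318), while its difference of -0.49 in 15lox/15lox did not pass. The call was lost without any of wt/wt arrays 4, 5 or 6 or 15lox/1638N arrays 1 or 2 (adjusted p 0.0714 to 0.141), and with the mean of the gene's probe sets or its second probe set (adjusted p = 0.0801 and 0.0860). Max itself differed by 0.37 (adjusted p = 0.122) and Mycn by -0.30 (adjusted p = 0.146).

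DNA replication genes, a list of 23 that cycling cells express, followed the members more closely as a mean than the single gene Myc did. Their mean per array correlated with the member mean at a Pearson r of 0.93 and a Spearman rho of 0.92 over the 12 arrays. It was 0.88 without 15lox/1638N arrays 1 and 2, and 0.91 for deviations from genotype means. Of the 23, 0 passed the test in any genotype, and their mean differed from wt/wt by 0.27 in 15lox/1638N, 0.04 in 15lox/1572T and 0.06 in 15lox/15lox. Myc is 1 gene and the list a mean of 23, so the 2 correlations compare unlike measures. The mean of 24 other Myc target genes ordered the 3 arrays of each genotype as the member mean did. Its correlation with the member mean was not computed. The share of cycling cells was not measured, and its part in the member values was not tested.

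The other factors of the pathway were read from a list of 125 further ribosome biogenesis genes, of which 124 were measured. In each mutant genotype 0 of 124 passed the test. Of these, 89 had a mean above wt/wt in 15lox/1638N (42.7% of all genes did), 77 in 15lox/1572T (42.8%) and 53 in 15lox/15lox (37.3%), with median differences of 0.14, 0.03 and -0.01. By role, the medians in 15lox/1638N were 0.20 for 8 small nucleolar RNP genes, 0.18 for 45 small subunit genes, 0.17 for 47 large subunit genes, 0.12 for 13 pre-rRNA trimming genes and -0.06 for 11 RNA polymerase I genes. At an unadjusted p under 0.05, 19 were higher and 4 lower in 15lox/1638N, where 6.19% of all genes were higher and 13.6% lower.

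Ribosomal protein genes, which encode the parts that these factors assemble, had a mean of 13.59 to 13.61 in every genotype. Of 77 listed, 44 were measured, and 0 of 44 passed the test in any genotype, and their mean differed from wt/wt by 0.00 in 15lox/1638N, 0.01 in 15lox/1572T and -0.01 in 15lox/15lox, with an SD between arrays of 0.01 to 0.04. Whether these probe sets register a change at such high values was not tested. Of 24 other Myc target genes, 0 passed, and their mean differed by 0.19, 0.06 and 0.04.

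**Figure D5:**
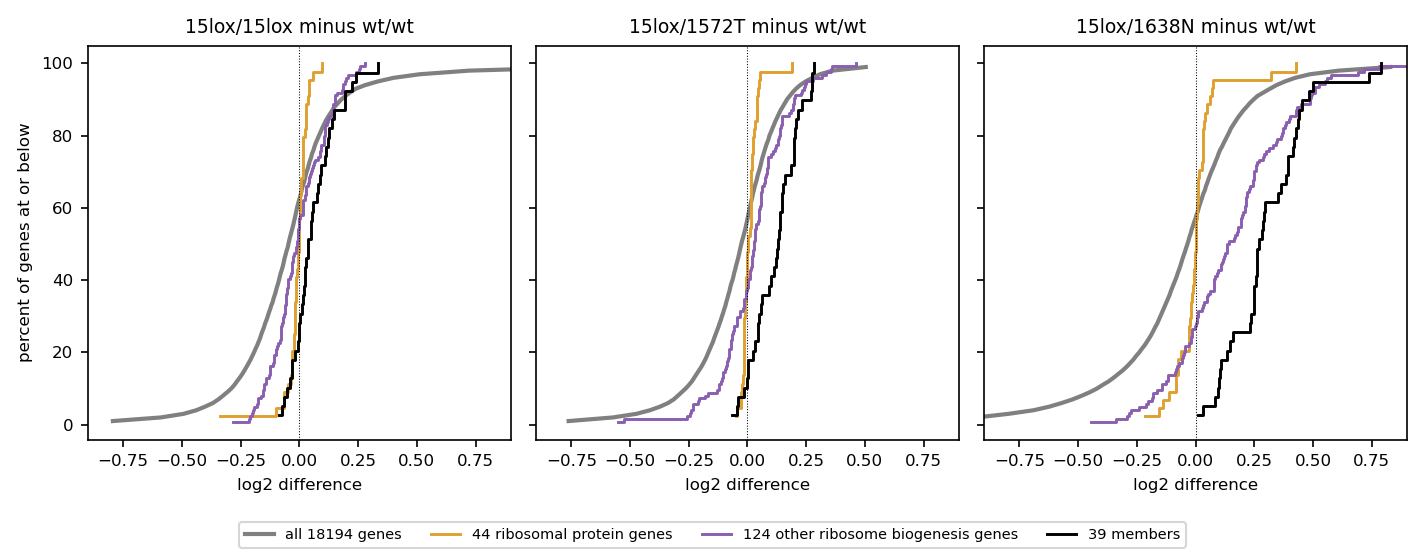
Percent of genes (y axis) with a log2 difference from wt/wt at or below the value on the x axis, in 15lox/15lox, 15lox/1572T and 15lox/1638N, for all 18194 genes, 44 ribosomal protein genes, 124 other ribosome biogenesis genes and the 39 members; the axis ends at -0.9 and 0.9. In 15lox/1638N the members start at 0.01 and their curve lies to the right of the others over most of its length, with the other ribosome biogenesis genes between them and all genes.

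Wnt target genes gave a different picture on the same arrays. Of 14, 12 rose in 15lox/15lox and 7 in 15lox/1638N, and 0 passed in 15lox/1572T. Axin2, the feedback inhibitor of the pathway, was 7.26, 7.38 and 7.57 in wt/wt, 12.28, 12.29 and 11.94 in 15lox/15lox, 11.17, 11.10 and 11.51 in 15lox/1638N and 7.69, 8.80 and 9.32 in 15lox/1572T. It rose by 4.77 in 15lox/15lox and 3.86 in 15lox/1638N. The mean of the 14 genes was higher than wt/wt by 2.17 in 15lox/15lox, 1.22 in 15lox/1638N and 0.14 in 15lox/1572T. The order of the genotypes by Wnt target genes thus had 15lox/15lox first, whereas by the member mean 15lox/1638N was first and 15lox/15lox last among the mutants, with values that overlapped between genotypes. Over the 12 arrays the Pearson correlation of these means was 0.16.

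Markers of other cell types also moved with genotype. Of 8 markers of dendritic cells, 5 fell in 15lox/1638N and 2 in 15lox/15lox, with list means of 9.74 to 11.01 on the wt/wt arrays, 7.89 to 8.53 in 15lox/1638N, 8.51 to 9.61 in 15lox/15lox and 8.68 to 9.61 in 15lox/1572T. Of 7 monocyte markers, 3 rose in 15lox/15lox, 3 in 15lox/1638N and 1 in 15lox/1572T, with list means of 8.86 to 8.99 in wt/wt and 9.17 to 10.02 in the mutants. Another 3 of the 7 had means below wt/wt in each mutant genotype, and the median differences were 0.22, 0.14 and 0.07, so the list means rested on a few genes, Cd14 with the largest difference (2.45, 3.56 and 2.53). Of 7 B cell markers, 1 fell in 15lox/15lox and 2 in 15lox/1638N, and of 6 T cell markers 1 fell in each mutant genotype. Of 9 neutrophil markers, 1 rose in 15lox/1638N. None of 6 erythroid, 6 megakaryocyte and 6 mast cell markers passed. The part of these shifts in the ribosome biogenesis values was not tested.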

How the data were processed

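Expression was measured in 15 samples of mouse LSK cells, 1 array each. The authors deposited log2 values per probe set; RMA and mm9 are named in the submitters' processing notes, without a role or a version. The log2 unit was read from the range of the deposited values. The precision is limited by 3 arrays per genotype in the fit, and no depth applies to arrays. Of 45101 probe sets, 34958 carried 1 gene symbol, 932 carried several and were not used, and 9211 were unnamed in the table used here, which left 18194 genes, each with its probe set of highest mean.

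All 12 arrays of the fit (wt/wt 4 to 6 and 9 mutant arrays) entered a limma model with 8 residual degrees of freedom and no covariate. Adjusted p-values follow Benjamini and Hochberg over all genes in each of 6 comparisons, and a gene was called at an adjusted p under 0.05. Members and gene lists were chosen with earlier results of these data known. Genes named with values were the well known members of each role, members past the threshold, those with the largest and smallest difference in each role, and Myc. Other named genes were chosen after their values were seen. The CACGCG and ATCAAAG motifs were added after the others. Alternatives covered the wt/wt arrays used, each array left out, the probe set rule, centring, quantile normalization, array weights, the eBayes settings, a filter on low values, an Xist covariate and a replicate block. Scripts were tested on simulated data. R 4.3.3, limma 3.58.1, Python 3.11.15 and matplotlib 3.10.9 were used.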

Additional observations from a re-analysis of the deposited data

How the results depend on the processing

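The count of called members in 15lox/1638N against wt/wt changed with the wt/wt arrays used and with array weights. It was 0 of 39 in the fit reported, where 3.47% of all genes (631) were called. With all 6 wt/wt arrays it was 5 of 39 (Polr1e, Gar1, Nhp2, Rrs1 and Ddx21), which is not above the 14.1% of all genes (2569) called there. With array weights it was 11 of 39, where 15.8% of all genes (2876) were called. Leaving out 1 array at a time gave 0 to 1 called members. The 1 was Gar1 without 15lox/15lox array 3 (limma adjusted p = 0.0478), where 5.19% of all genes were called. That array enters the shared spread but not this difference, which stayed at 0.44, with a standard error of 0.11 there and 0.15 in the fit reported. For the 5 other comparisons, 0 members were called under each of 26 alternatives. Among these, the test of all 83 probe sets of the members singly was chosen after seeing the data. That test called 0 in each comparison, 15lox/1638N against wt/wt included. Of the 83 probe sets, 81 had a difference from wt/wt above 0 in 15lox/1638N, 69 in 15lox/1572T and 58 in 15lox/15lox. Members at an unadjusted p under 0.05 in 15lox/1638N numbered 14, with 2 to 20 when 1 array was left out (2 without 15lox/1638N array 1, 3 without wt/wt array 6) and 10 to 28 under the other settings. For 15lox/1638N against 15lox/1572T that count was 1, with 0 to 6 and 0 to 11, and for 15lox/1572T against wt/wt it was 1, with 0 to 3 and 1 to 5. The role means over all probe sets were chosen after seeing the data. The difference of the member mean kept its sign in 15lox/1638N and 15lox/1572T and changed it in 15lox/15lox without wt/wt array 6 (-0.02) or 15lox/15lox array 2 (-0.06). Whether equal replicate numbers pair the samples was not settled. Of 9 same-numbered pairs of mutant arrays, 3 had a correlation of deviations over 0.1, with a range of -0.13 to 0.43. Pairs with different numbers ranged from -0.47 to 0.23. The highest values, 0.43 and 0.33, were for arrays 3 and arrays 2 of 15lox/15lox and 15lox/1638N. Deviations from a mean of 3 arrays depend on each other, so these values cannot decide it. With a replicate block, fitted on all 15 arrays for the comparisons with wt/wt because only wt/wt arrays 1 to 3 share numbers with the mutants, so that the control changed with the block, 0 members were called in each of 6 comparisons, and the member mean differed by 0.29 in 15lox/1638N, 0.11 in 15lox/1572T and 0.05 in 15lox/15lox. With 3 arrays per genotype and a median standard error of 0.15, differences of the size measured in most members did not reach the threshold.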
